A study of Mus musculus with 37 samples.

Results

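The colony-stimulating factors and their receptors were followed in bone marrow-derived macrophages (BMDMs). The members were the rows of the deposited expression table whose gene symbol was Csf1, Csf2, Csf3, Csf1r, Csf2ra, Csf2rb, Csf2rb2 or Csf3r. All 8 had a row among the 24016 genes of the table, and they comprise 3 ligands and 5 receptor chains. PolyA RNA had been sequenced from BMDMs of wild-type (WT) C57BL/6J mice and of Arntl-/- mice, in which both copies of Arntl, the gene for the clock transcription factor Bmal1, carry a deletion. The labels give the strain C57BL/6J for both genotypes, and the study describes its WT mice in one place as littermates of the Arntl-/- mice and in another as bought C57BL/6J mice. Which part of Arntl is deleted is not given in the sources used here. The mice were male and 6 to 9 weeks old. Cells of both genotypes had been grown for 6 days in RPMI-1640 with 10% FCS and 20 ug/ml M-CSF, the protein that Csf1 encodes, and were collected 0, 6, 24 or 48 h after Kdo2-lipid A (KLA), the part of lipopolysaccharide that Toll-like receptor 4 (TLR4) recognizes. There was 1 library for each of the 8 conditions, so in these libraries no difference between a pair of conditions has a replicate check or a test. Whether M-CSF stayed in the medium during KLA, the KLA dose of the RNA-seq cultures, and whether a library came from 1 mouse or several are not given in the sources used here.

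Colony-stimulating factors are secreted proteins that control the survival, growth and maturation of myeloid cells. M-CSF binds the receptor tyrosine kinase Csf1r, on which most macrophages depend for survival, and macrophages take up and degrade the M-CSF they bind. GM-CSF (Csf2) binds a specific alpha chain, Csf2ra, which signals together with the common beta chain Csf2rb through Jak2 and Stat5, and G-CSF (Csf3) binds Csf3r, the receptor best known from neutrophils. Csf2rb2 is a mouse paralog of Csf2rb that serves interleukin-3. TLR4 stimulation is known to make macrophages secrete colony-stimulating factors of their own.

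Levels are given as scaled FPKM, fragments per kilobase of exon per 10000000 reads divided by a size factor for each library. They are per length, but the levels of genes dense in reads also moved with library depth, as described for Csf1r below, so a ratio of a sparse to a dense gene carries that as well. The libraries held between 8587560 reads on genes (Arntl-/-, 48 h) and 27036783 (WT, 6 h). Intervals are 95% intervals for the counting of reads and cover counting error only. At 0, 6, 24 and 48 h Arntl itself read 34.3, 32.3, 35.6 and 38.7 scaled FPKM in the WT libraries, against 13.9, 11.3, 18.8 and 20.2 in those labelled Arntl-/-, so that it was 1.89- to 2.83-fold lower there, with 75 to 136 reads still on the gene. The 9 macrophage markers in the table were above the floor of 3 reads in all 8 libraries, led by Lyz2. T cell, mast cell and dendritic cell markers summed to at most 67.7 scaled FPKM in any library, with Cd3e, Cd3g, Fcer1a, Ms4a2 and Cd209a at 0 reads throughout. Cd79b, at 18.1 to 54.3 scaled FPKM, led the B cell markers, and Kdr, at 11.7 to 33.6, the endothelial markers.

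Csf1 and Csf3 had the widest range over the 8 libraries, 5.02- and 5.16-fold, among the members with no count of 0. For Csf1, which also had the largest ratio between genotypes of the members analyzed, the 250 bases of mm9 before the RefSeq transcript start are shown, read along the gene. Capitals mark matches to 5 motifs that were looked for on both strands: the NF-κB motif, AGATTCC (the core of the CK-1 element of cytokine promoters), CACGTG (the E-box that Bmal1 binds), TGANTCA (AP-1) and GAGGAA (the core of PU.1 sites).
Csf1, chr3:107563388-107563637, minus strand: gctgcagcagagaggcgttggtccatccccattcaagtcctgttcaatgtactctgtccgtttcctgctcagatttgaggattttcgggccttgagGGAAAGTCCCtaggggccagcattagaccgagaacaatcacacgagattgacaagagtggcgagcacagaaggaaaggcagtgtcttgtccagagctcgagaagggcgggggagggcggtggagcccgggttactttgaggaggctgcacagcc
In Csf1 the capitals are an NF-κB match on the opposite strand, 154 to 145 bases before the start. The matches that follow are those of the receptor genes and Csf2, whose windows are not shown. Csf3r held an NF-κB match 129 to 120 bases before the start and Csf1r an AP-1 match 22 to 16 bases before it, and the PU.1 core was in the windows of Csf2ra, Csf2rb, Csf2rb2 and Csf3r. Of 23951 windows of 250 bases before the starts of genes, 7.80% held an NF-κB match, 2.77% the CK-1 core, 6.15% the AP-1 motif and 22.7% the PU.1 core. The E-box was in 6.58% of all windows and in the window of none of the 8 members. For Csf2, the window before the RefSeq start used in the file held none of the 5 motifs, while the window before the GENCODE start, which lies 232 bases further downstream, held the CK-1 core 81 to 75 bases and the PU.1 core 20 to 15 bases before that start. These matches are a description of the letters, and no binding was analysed here. The windows do not cover regions further from the starts. The paper reports Bmal1 binding, by ChIP-seq in peritoneal macrophages, in the regulatory region of Csf1r.

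Csf1 had the largest ratio between genotypes and after KLA of the 6 members among the genes analyzed (chr3:107543966-107563387 in mm9, minus strand). The 4 WT libraries held 24.6, 84.7, 57.9 and 40.7 scaled FPKM at 0, 6, 24 and 48 h. The Arntl-/- libraries held 67.3, 123, 53.0 and 38.7. Unstimulated Arntl-/- cells thus stood above every WT library but that of 6 h, whereas the counting intervals of both genotypes overlapped at 24 and at 48 h.

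The Arntl-/- library at 0 h held 2.73-fold more Csf1 than the WT library (interval 2.31 to 3.25, 689 against 171 reads), or 1.45 on the log2 scale. Csf1 was the only 1 of the 6 members analyzed to pass 1.5-fold there, where 3.77% of all genes analyzed did. Only 7 of these genes, Csf1 included, had a ratio as high. At 6 h the ratio was 1.46 (1.34 to 1.58), just short of 1.5-fold, and none of the 6 passed it, against 3.66% of all genes. With a correction for expression level, which subtracts a smooth curve of the ratio over expression, Csf1 did pass at 6 h, at 0.63 on the log2 scale. The ratios at 24 and 48 h were 0.915 (0.790 to 1.06) and 0.951 (0.764 to 1.18), and again none of the 6 passed 1.5-fold, against 4.81% and 9.18% of all genes.

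After KLA, Csf1 rose 3.43-fold (2.94 to 4.06) in WT cells at 6 h and 1.83-fold (1.67 to 2.02) in Arntl-/- cells. It was the only 1 of the 6 past 1.5-fold at 6 h in either genotype, where 7.60% of all genes passed in WT and 5.37% in Arntl-/- cells, and 27 genes in WT had a change as high. At 24 h the level was still 2.35-fold above 0 h in WT cells. In Arntl-/- cells it was 1.27-fold below 0 h at that time (1.12 to 1.44). By 48 h the changes were a 1.65-fold rise in WT and a 1.74-fold fall in Arntl-/- cells. The Csf1 ratios of all 10 comparisons kept their direction under every scaling and pseudocount tried. As the plot of levels by time shows, the genotypes were furthest apart before KLA.

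**Figure D1:**
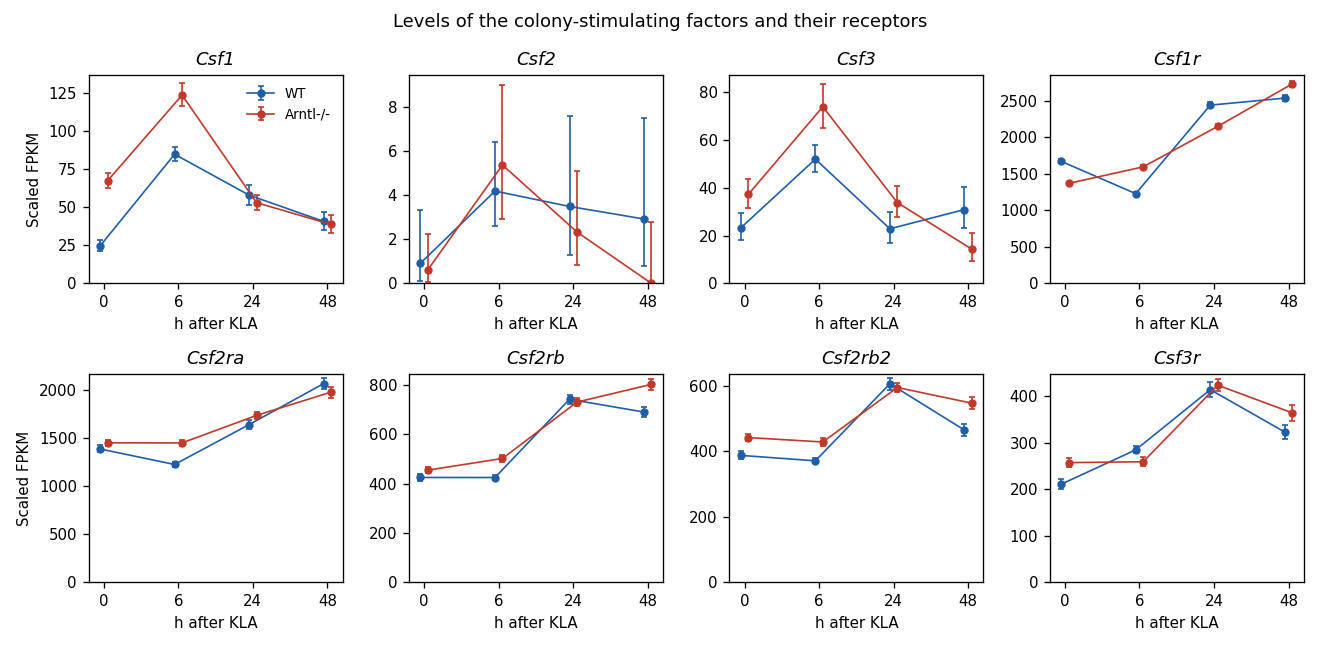
Scaled FPKM (vertical axis, from 0) of each member at 0, 6, 24 and 48 h after KLA (horizontal axis, evenly spaced) in WT (blue) and Arntl-/- (red) BMDMs, 1 library a point, with bars for the 95% counting interval. Csf1 starts at 24.6 in WT and 67.3 in Arntl-/- cells, and both genotypes are near 40 at 48 h, at 40.7 and 38.7.

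Csf3, which encodes G-CSF, lay at chr11:98562627-98564943 on the plus strand. Its WT levels at 0, 6, 24 and 48 h were 23.3, 52.1, 22.9 and 31.0 scaled FPKM, and its Arntl-/- levels 37.3, 74.0, 33.9 and 14.4, from 25 to 345 reads. Both genotypes were highest at 6 h, and Arntl-/- cells were above WT cells at every time but 48 h. The rise by 6 h was 2.23-fold (1.72 to 2.95) in WT and 1.98-fold (1.62 to 2.43) in Arntl-/- cells. Between genotypes the ratio was 1.60 at 0 h (1.20 to 2.16), 1.42 at 6 h (1.20 to 1.68) and 1.48 at 24 h (1.06 to 2.09). At 48 h Csf3 was 2.15-fold lower in Arntl-/- cells (1.32 to 3.61), from 25 reads there and 56 in WT. With the correction for expression level the ratio at 6 h was 0.62 on the log2 scale, past 1.5-fold. Neither Csf3 nor Csf2 was among the genes analyzed, those whose highest WT level times length in kb reached 74.5, so they are not in the counts of members and have no share beside them. A mean of at least 100 reads kept Csf3 but not Csf2, and of the genes kept 4.49%, 4.07%, 5.62% and 10.5% passed 1.5-fold between genotypes at 0, 6, 24 and 48 h, and 8.02% in WT and 5.73% in Arntl-/- cells passed it at 6 h after KLA.

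Csf2, which encodes GM-CSF, was at the edge of detection (chr11:54060772-54063401, minus strand). The reads were 2, 21, 6 and 4 in WT and 2, 14, 6 and 0 in Arntl-/- cells, or at most 5.36 scaled FPKM. Only the pair of libraries at 6 h held more than 6 reads. Against the 2 reads at 0 h, which are under the floor of 3 reads, only a rough ratio can be given. The plain quotient of the levels at 6 h and 0 h was 4.56 in WT cells (1.11 to 40.1). In Arntl-/- cells it was 8.60 (1.98 to 78.0). On the log2 scale, with 0.1 added to each level, these changes were 2.07 and 2.92. At 6 h the genotypes differed by less than the counting error, with a ratio of 1.28 (0.603 to 2.64). The count of 0 in Arntl-/- cells at 48 h allows a level of up to 2.27 scaled FPKM by the floor of 3 reads, and the upper end of its 95% interval is 2.80. In GENCODE the exons of Csf2 share 96 bases with Gm12223, a transcript on the other strand, and since reads were counted on both strands these cannot be told apart.

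Markers of other cells moved with the ligands in part. Of 10 neutrophil markers in the table, 3 were above the floor in every library and 8 in at least 1, and Mpo had 0 reads throughout. The summed level was 1239 to 2570 scaled FPKM in WT and 1980 to 2885 in Arntl-/- libraries, and the Arntl-/- sum was above the WT sum at each of the 4 times, also at 48 h, where Csf3 was lower. At 48 h that sum was mostly Mmp8 and S100a8, at 1642 and 910 in WT and 1941 and 905 in Arntl-/- cells. Ngp, Ltf, Cxcr2 and Retnlg then had at most 4 reads in either library, and S100a9 at most 7. Of the markers with a read in either library, the Arntl-/- level was the higher for 7 of 8 at 0 h (all but Mmp8), 6 of 8 at 6 h, 6 of 8 at 24 h and 3 of 5 at 48 h. Mmp8, the highest, read 1055, 691, 1272 and 1642 in WT and 1028, 1097, 1195 and 1941 in Arntl-/- cells, so that it was higher in the latter at 6 and 48 h. S100a9 read 164, 207, 148 and 10.1 in WT and 403, 428, 371 and 9.00 in Arntl-/- cells, higher in the latter at 0, 6 and 24 h. The 10 stromal markers, led by Col1a1, summed to 513 to 1253 in WT and 384 to 759 in Arntl-/- libraries, with the Arntl-/- sum below the WT sum at each of the 4 times. The collagens and Postn were lower in Arntl-/- cells at every time, but Dcn was higher at 0, 24 and 48 h and Lum at 0, 6 and 48 h. In all, 8 of 10 were lower at 0, at 6 and at 24 h, and 5 of the 9 with a read at 48 h. The part of these cells in the ligand levels was not tested. In RNA from a whole culture, fewer cells of a type and less RNA per cell cannot be told apart.

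Csf1r was the most abundant member in 7 of the 8 libraries (chr18:61265226-61290793, plus strand). Its levels were 1673, 1230, 2443 and 2539 scaled FPKM in WT and 1371, 1597, 2152 and 2733 in Arntl-/- cells at 0, 6, 24 and 48 h. At no time were more than 0.545% of the genes of the table above it. The levels at 24 and 48 h stood above those at 0 and 6 h in both genotypes, and the lowest level was that of WT cells at 6 h.

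Between genotypes Csf1r passed 1.5-fold at no time: its log2 ratio of Arntl-/- to WT was -0.29, 0.38, -0.18 and 0.11 at 0, 6, 24 and 48 h. With the correction for expression level these became 0.00, -0.12, 0.05 and 0.18, so that the direction at 6 and 24 h turned. After KLA the log2 change at 6 h was -0.44 in WT and 0.22 in Arntl-/- cells, neither past 1.5-fold, and the correction turned both, to 0.10 and -0.03. The gain at 48 h, 1.52-fold in WT and 1.99-fold in Arntl-/- cells, was past 1.5-fold as scaled, and was 0.13 and 0.30 on the log2 scale after the correction. The gain at 24 h in Arntl-/- cells, 1.57-fold, became 0.45 on the log2 scale. Each of the 3 calls on Csf1r after KLA was thus lost with the correction. The study also measured Csf1r by qPCR in replicate, scaled to ribosomal RNA. It reported that Csf1r in Arntl-/- cells stayed low at 6 h and was higher after 24 h. Those values were not used here, where the log2 ratio to WT was 0.38 at 6 h and -0.18 at 24 h.

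These shifts went with read density. Csf1r had 3.39 to 6.01 reads for each exon base, and across the 215 genes with a mean of over 3 reads per base the log2 change in WT at 6 h had a median of -0.57, with 98.6% of them below 0. For the 6484 genes with at most 0.5 reads per base the median was 0.03. Between genotypes at 6 h the medians of these groups were 0.50 and -0.06. The plot against read density shows the members among these genes. In WT cells at 6 h the upper quartile of the densest group was -0.46, with Csf1r just above it at -0.44 and Csf2ra further above at -0.18. Between genotypes at 6 h its lower quartile was 0.41, and Csf1r (0.38) and Csf2ra (0.24) lay below it. A value as low as that of Csf1r was had by 77.7% of the group in the first comparison and by 17.7% in the second.

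**Figure D2:**
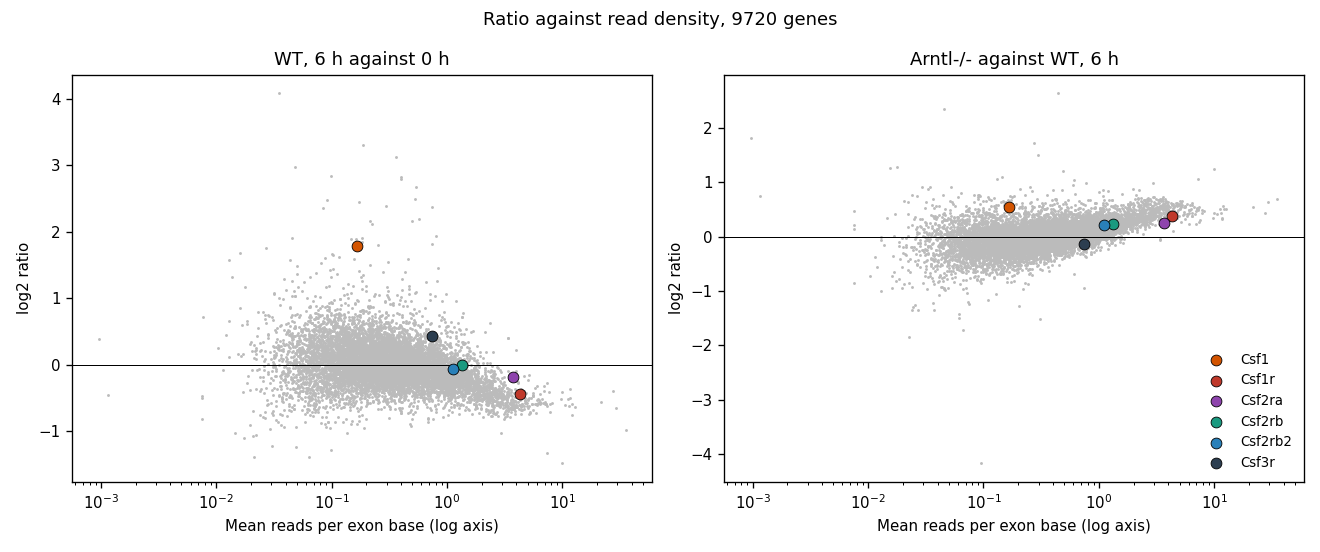
Log2 ratio (vertical axis) of WT at 6 h to 0 h (left) and of Arntl-/- to WT at 6 h (right) against the mean reads per exon base over the 8 libraries (horizontal log axis) for the genes analyzed (grey) and the 6 members among them (colour). The grey band bends down at the dense end on the left and up on the right, where the median of genes over 3 reads per base is -0.57 and 0.50.

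Over the 8 libraries the Csf1r level followed the depth of the library downwards. Pearson's r between the log2 level and log2 depth was -0.918 (exact two-sided permutation p = 0.00117, 0.00933 after Benjamini-Hochberg adjustment over the 8 members). Spearman's rho was -0.976 (exact permutation p = 0.000397, adjusted 0.00317). Without the deepest and the shallowest library, WT at 6 h and Arntl-/- at 48 h, r was -0.843 over 6 libraries. Csf2ra came next, with an r of -0.858 (exact permutation p = 0.00709, adjusted 0.0284) and a rho of -0.762 (exact permutation p = 0.0368, adjusted 0.0733), and an r of -0.687 without the same libraries. Csf3 was the only member with a positive relation past the threshold after adjustment, in rho (0.857, exact permutation p = 0.0107, adjusted 0.0429) but not in r (0.713, exact permutation p = 0.0467, adjusted 0.0935), and its r fell to 0.499 over the 6 libraries. Csf1 had an r of 0.567 (exact permutation p = 0.141, adjusted 0.193) and a rho of 0.738 (exact permutation p = 0.0458, adjusted 0.0733). Of all genes analyzed, 4.24% had an r as low as that of Csf1r, and of the 215 densest genes 67.4% did. Depth differs with time and genotype here, and the 48 h libraries are the shallowest of each genotype, so that depth and condition cannot be told apart within these 8 libraries. The permutations treat the 8 libraries as exchangeable, which libraries of a course over time are not. The p-values therefore do not measure the relation to depth apart from hour and genotype.

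**Figure D3:**
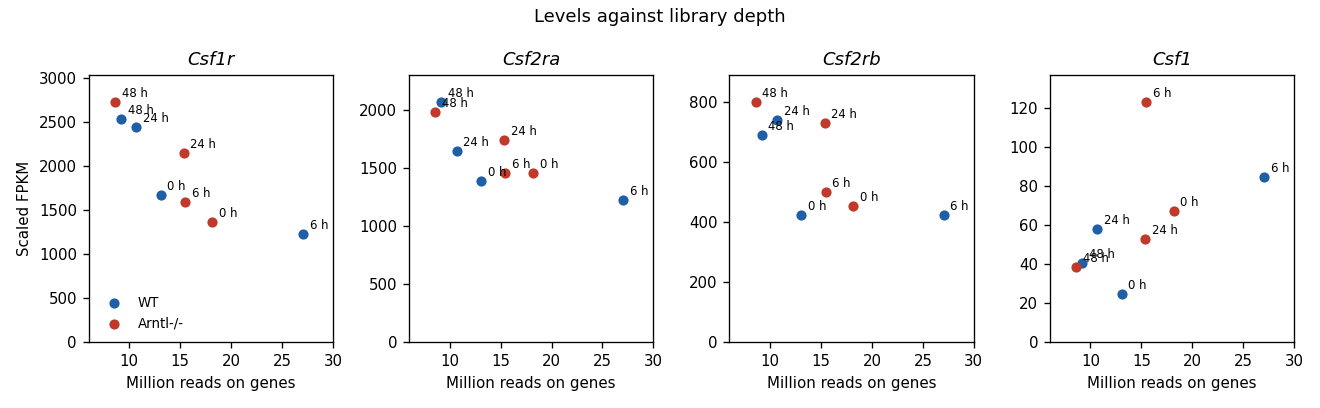
Scaled FPKM (vertical axis, from 0) of Csf1r, Csf2ra, Csf2rb and Csf1 against the reads on genes of each library (horizontal axis), with WT in blue and Arntl-/- in red and the hour after KLA beside each point. Csf1r runs from 2733 in the shallowest library to 1230 in the deepest.

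Csf2ra, the GM-CSF-specific alpha chain, was nearly as abundant as Csf1r (chr19:61300305-61304321, minus strand). It read 1388, 1227, 1643 and 2069 scaled FPKM in WT and 1452, 1451, 1738 and 1981 in Arntl-/- cells, and in Arntl-/- cells at 0 h it exceeded Csf1r. The genotypes lay within 1.18-fold of each other at every time. No change of Csf2ra after KLA passed 1.5-fold as scaled, though the WT level at 48 h came close, at 1.49-fold above 0 h (1.43 to 1.55). With upper-quartile scaling that change was 0.63 on the log2 scale, past 1.5-fold, so that 5 of the 6 members passed in WT cells at 48 h, against 27.3% of all genes. After the correction for expression level it was 0.14, and the one in Arntl-/- cells at 48 h turned from 0.45 to -0.19. The WT change at 6 h turned from -0.18 to 0.32, and the ratio between genotypes at 6 h from 0.24 to -0.23.

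The beta chains are paralogs that lie near each other on chromosome 15, Csf2rb at chr15:78156420-78181431 on the plus strand and Csf2rb2 at chr15:78112938-78136151 on the minus strand. Since their reads could be confused, their coding sequences were aligned, and 95.2% of the 2631 aligned bases were identical, with a longest identical run of 242 bases. A stretch of 60 coding bases in exon 2 of each gene shows how far apart they are, with the differing bases in capitals.
Csf2rb, chr15:78165660-78165719, plus strand: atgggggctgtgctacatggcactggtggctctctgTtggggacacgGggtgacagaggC
Csf2rb2, chr15:78128577-78128636, minus strand: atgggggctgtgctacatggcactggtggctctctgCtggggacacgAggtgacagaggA
Of all 50-base stretches of the transcript, 18.3% of those of Csf2rb and 18.9% of those of Csf2rb2 were also in the other, so reads from these could be given to either gene. The read length of the RNA libraries is not given in the sources used here, so how far the levels of this pair are uncertain is not known.

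Csf2rb read 425, 425, 742 and 690 scaled FPKM in WT and 454, 502, 730 and 802 in Arntl-/- cells. Csf2rb2 read 388, 371, 607 and 465 in WT and 442, 429, 595 and 548 in Arntl-/- cells. Neither passed 1.5-fold at 6 h, and both were highest at 24 h in WT cells. In WT cells at 24 h Csf2rb rose 1.75-fold (1.68 to 1.82) and Csf2rb2 1.56-fold. In Arntl-/- cells Csf2rb rose 1.61-fold (1.56 to 1.66), while Csf2rb2 was 1.35-fold above 0 h and did not pass. At 48 h Csf2rb was still up 1.62-fold in WT and 1.76-fold in Arntl-/- cells, and Csf2rb2 was 1.20- and 1.24-fold above 0 h. After the correction for expression level Csf2rb was just short of 1.5-fold, which is 0.58 on the log2 scale, in Arntl-/- cells at 24 h (0.575) and 48 h (0.53) and in WT cells at 48 h (0.50). Csf2rb2 was then at 0.33, 0.09 and 0.11 in these comparisons. Within a library, the ratio of Csf2rb to Csf2rb2 was 1.09, 1.14, 1.22 and 1.48 in WT and 1.03, 1.17, 1.23 and 1.47 in Arntl-/- cells, highest at 48 h in both. Neither gene differed by more than 1.18-fold between genotypes at any time, and for Csf2rb the log2 ratio at 6 h, 0.24, went to 0.00 with the correction.

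Csf3r, the G-CSF receptor (chr4:125701903-125722219, plus strand), was the least abundant receptor chain in all 8 libraries. Its level was 211, 285, 414 and 323 scaled FPKM in WT and 257, 259, 424 and 364 in Arntl-/- cells. It peaked at 24 h in both genotypes, where it was 1.96-fold (1.85 to 2.09) above 0 h in WT and 1.65-fold (1.57 to 1.73) in Arntl-/- cells. At 6 h it was 1.35-fold above 0 h in WT (1.28 to 1.43) and 1.01-fold in Arntl-/- cells (0.956 to 1.06). At 48 h it was past 1.5-fold in WT, at 1.53-fold, and not in Arntl-/- cells, at 1.42-fold, and whether these differ was not tested. After the correction the WT value was 0.55 on the log2 scale, short of 1.5-fold. Between genotypes at 0 h Csf3r was 1.22-fold above WT in Arntl-/- cells (1.15 to 1.29). Among the receptor chains this was the ratio furthest above 1 at that time. In the same pair of libraries the neutrophil markers summed to 1980 in Arntl-/- and 1586 in WT cells, with 7 of 8 higher in Arntl-/- cells. At 6, 24 and 48 h the sums were 2131, 2060 and 2885 in Arntl-/- and 1239, 1896 and 2570 in WT cells. The Csf3r ratios at these times were 0.910 (0.868 to 0.954), 1.02 and 1.13. At 6 h Csf3r was thus lower in Arntl-/- cells where the marker sum was higher. The part of these markers in the Csf3r ratio was not tested.

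Counted together, 4 of the 6 members analyzed passed 1.5-fold in WT cells at 24 h (Csf1, Csf2rb, Csf2rb2 and Csf3r), against 15.9% of all genes, and 3 did in Arntl-/- cells (Csf1r, Csf2rb and Csf3r), against 16.0%. At 48 h 4 passed in WT cells (Csf1, Csf1r, Csf2rb and Csf3r), against 27.0%, and 3 in Arntl-/- cells (Csf1, Csf1r and Csf2rb), against 31.5%. All of these were rises apart from that of Csf1 in Arntl-/- cells at 48 h. The median log2 change of the 6 at 24 h was 0.72 in WT and 0.54 in Arntl-/- cells, beside 0.00 and 0.02 over all genes. The KLA comparisons of a genotype share its 0 h library and are not independent of each other. After the correction for expression level, 1 member passed in Arntl-/- cells at 24 h, 1 at 48 h, and 1 in WT cells at 48 h, against 15.7%, 27.5% and 25.2% of all genes with the same correction, while the count of 4 in WT cells at 24 h stayed, against 15.7%. Of the calls lost, those of Csf2rb and Csf3r kept values of 0.50 to 0.575 on the log2 scale, and those of Csf1r 0.13 to 0.45. With the values as deposited, Csf1 alone passed in WT cells at 48 h, against 28.4% of all genes, with Csf1r at 0.47, Csf2rb at 0.56 and Csf3r at 0.48 on the log2 scale, and in Arntl-/- cells at 24 h Csf1r was just short, at 0.583. The macrophage markers moved with the receptor chains in part. The summed level of the 9 was 19579, 14512, 24946 and 35507 scaled FPKM in WT and 16487, 19396, 23374 and 31175 in Arntl-/- cells at 0, 6, 24 and 48 h. Against 0 h, 7 of 9 were higher in WT and 8 of 9 in Arntl-/- cells both at 24 and at 48 h, Mrc1 being lower each time. Between genotypes 8 of 9 were lower in Arntl-/- cells at 0 h and 3 of 9 at 6 h. At 24 and at 48 h 7 of 9 were lower. The receptor chains below WT in Arntl-/- cells were Csf1r at 0 h, Csf3r at 6 h and Csf2ra at 48 h. At 24 h they were Csf1r, Csf2rb and Csf2rb2. From 24 to 48 h in WT cells Csf2rb, Csf2rb2 and Csf3r fell while the marker sum rose. Lyz2 held 21812 of that sum in WT cells at 48 h. The part of the markers in the receptor changes was not tested. The plot of ratios sets the 10 comparisons side by side.

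**Figure D4:**
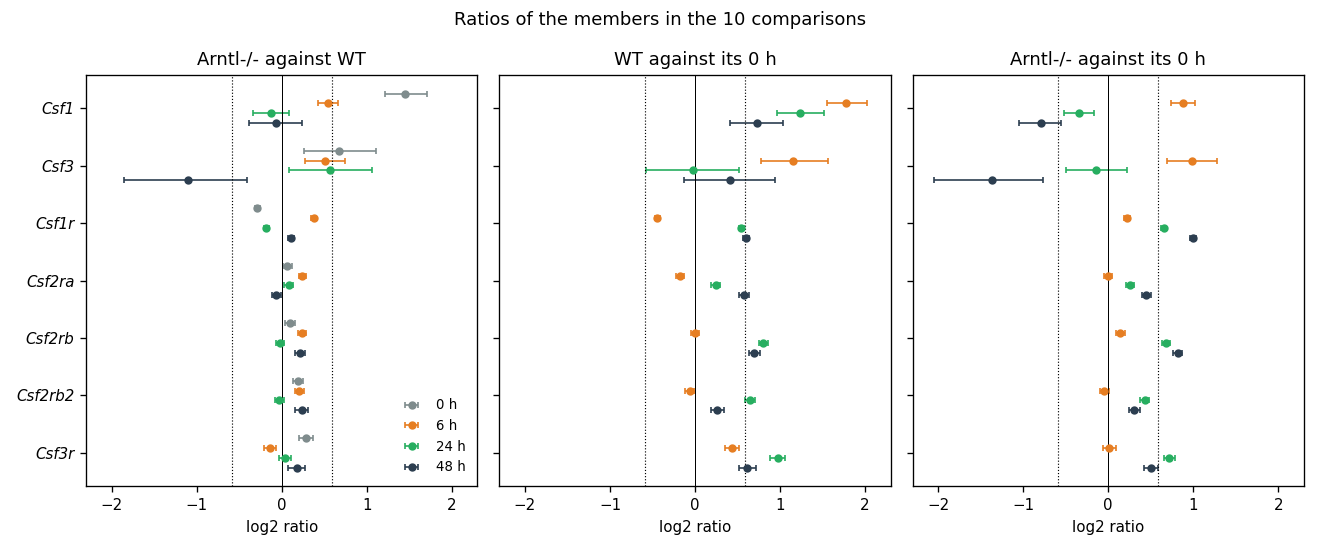
Log2 ratio (horizontal axis) of each member but Csf2, between genotypes at each time (left) and against 0 h in WT (middle) and Arntl-/- cells (right), with bars for the 95% counting interval, colours for the hour and dotted lines at 1.5-fold. Between genotypes Csf1 at 0 h and Csf3 at 0 and 48 h lie beyond the lines, and the receptor chains lie within them.

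Over the 4 times taken as pairs, none of the 6 members differed between genotypes after adjustment, against 0.381% of all genes (limma with the hour as a block, 3 residual degrees of freedom, chosen after seeing the data). This fit looks for a difference common to all times and treats a difference that changes with time as error. Csf1 had a mean log2 difference of 0.45 ± 0.73 (SD over 4 times), above WT at 2 of the 4, with a limma p of 0.0599 and an adjusted p of 0.591. The means of the receptor chains lay between 0.00 (Csf1r) and 0.15 (Csf2rb2), with adjusted p from limma of 0.688 to 0.999.

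The order of the levels was nearly fixed. In 7 libraries it ran Csf1r, Csf2ra, Csf2rb, Csf2rb2, Csf3r, Csf1, Csf3 and Csf2, and in unstimulated Arntl-/- cells Csf1r and Csf2ra changed places. At 6 h in WT cells Csf1r and Csf2ra, at 1230 and 1227 scaled FPKM, differed by less than the counting error. Csf1 mRNA amounted to 1.47% of the Csf1r level in unstimulated WT cells and 4.91% in unstimulated Arntl-/- cells, rose to 6.88% and 7.73% at 6 h, and was 1.60% and 1.42% at 48 h.

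Of the related ligands and receptors, Il3ra, the alpha chain of the interleukin-3 receptor, was the only 1 of 9 among the genes analyzed. It read 146, 124, 130 and 134 scaled FPKM in WT and 146, 165, 145 and 245 in Arntl-/- cells, and was past 1.5-fold between genotypes at 48 h alone, by 0.87 on the log2 scale, where 9.18% of all genes were. Il34, the other ligand of Csf1r, had at most 6 reads in any library.

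Of the kinases, adaptors and phosphatases that act next to these receptors, none of 30 passed 1.5-fold between genotypes at 0, 6, 24 or 48 h, against 3.77%, 3.66%, 4.81% and 9.18% of all genes. Their median log2 ratio was -0.09, 0.11, 0.03 and -0.08, beside -0.02, 0.01, 0.00 and -0.02 over all genes. After KLA in WT cells 1 of 30 passed at 6 h, against 7.60% of all genes. This was Tyrobp, an adaptor with 4.46 reads per base, which fell by 0.59 on the log2 scale, where genes as dense had a median of -0.57. Jak2, the kinase of the GM-CSF receptor, was 0.29 above 0 h in WT cells at 6 h and rose by 0.79 at 24 h, and Dok2, an adaptor that restrains signalling, fell by 1.14 at 24 h. Of the genes for cleavage of receptors at the cell surface (Adam10, Adam17 and Rhbdf2 were analyzed), none of 3 passed in any of the 10 comparisons, where the share of all genes ran from 3.66% (between genotypes at 6 h) to 31.5% (Arntl-/- cells at 48 h). A count of 0 of 3 is near these shares. At 6 h in WT cells their log2 changes were -0.19, -0.06 and 0.37. The protease Adam17, which sheds Csf1r, had 625 to 919 scaled FPKM.

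Among 13 regulators of the Csf1r gene, Cebpb, a bZIP factor of macrophage activation, passed 1.5-fold between genotypes at 3 of the 4 times. Its levels were 740, 485, 1141 and 992 scaled FPKM in WT and 402, 886, 1164 and 1608 in Arntl-/- cells. It was lower in Arntl-/- cells at 0 h (-0.88 on the log2 scale), higher at 6 h (0.87) and 48 h (0.70), with a ratio of 0.03 at 24 h. Its family member Cebpa was lower at 0 h (-0.77). Egr2 differed at 6 h (-0.71), 24 h (0.74) and 48 h (-0.71) from 46 to 284 reads, and Tfec at 48 h (-0.83). Thus 2, 2, 1 and 3 of 13 passed at 0, 6, 24 and 48 h, against 3.77%, 3.66%, 4.81% and 9.18% of all genes. Spi1, which encodes PU.1, passed at no time between genotypes. In WT cells at 6 h Fos rose by 0.68 and Cebpb fell by 0.61, followed by Tfec (0.57) and Spi1 (-0.41), which did not pass. Cebpb had 1.96 reads per base and Spi1 2.94, and genes with 1 to 2 and 2 to 3 reads per base had median changes of -0.22 and -0.43 there. The ratios of these list genes were not recomputed with the correction.

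Of 16 genes known to respond to M-CSF, 14 were analyzed. The cell cycle genes Ccnd1 and Myc had 699 and 161 scaled FPKM in unstimulated WT cells, and fell by 2.32 and 1.68 on the log2 scale at 24 h. Between genotypes 1, 1, 2 and 5 of 14 passed at 0, 6, 24 and 48 h, against 3.77%, 3.66%, 4.81% and 9.18% of all genes. In Arntl-/- cells Myc was lower than in WT at 24 h (-0.62) and 48 h (-1.54), and at 48 h so were Ccnd1 (-0.80) and Ccnd2 (-0.66). Egr1, an immediate early gene, was above WT in Arntl-/- cells at 0 h (0.65) and 48 h (0.60). The others were those of Egr2, given above, lower at 6 and 48 h and higher at 24 h. In WT cells 1 passed at 6 h (Fos, a rise), 7 at 24 h, of which 6 fell, and 7 at 48 h, of which 5 fell, out of 14 and against 7.60%, 15.9% and 27.0% of all genes. At 6 h Egr1 was next above 0 h (0.47), and Ccnd2 (-0.40) was the lowest.

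Of 11 genes induced by GM-CSF and Stat5, 6 were analyzed, among them the feedback inhibitors Socs1 and Socs3. Socs1 read 27.6, 64.0, 71.7 and 59.2 scaled FPKM in WT and 51.4, 64.5, 59.5 and 51.9 in Arntl-/- cells. It was the only 1 of the 6 to pass between genotypes at 0 h, where 3.77% of all genes did, by 0.90 on the log2 scale, and at 6 h the genotypes differed by 0.01. At 6 h in WT cells 2 of the 6 passed, against 7.60% of all genes. Socs1 rose by 1.21 and Socs3 by 0.96, and Bcl2l1 (-0.23) was the only one below its 0 h level. Pim2 was lower in Arntl-/- cells at 6 h (-0.72) and 48 h (-0.81), the only 1 of the 6 to pass at these times, against 3.66% and 9.18% of all genes. Cish, a direct Stat5 target, was below the level of the genes analyzed, with 21 to 71 reads.

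The proteins that bind AU-rich elements control how long the mRNAs of Csf2, Csf3 and other cytokines last. None of the 9 passed 1.5-fold between genotypes at any time, where 3.66% to 9.18% of all genes did. In WT cells at 6 h Hnrnpd fell by 0.72, and Zfp36, whose protein tristetraprolin promotes decay of these mRNAs, was 0.47 above 0 h, with Zc3h12a (0.19) next and Zfp36l1 (-0.30) the second lowest. In Arntl-/- cells at 6 h Zfp36 rose by 0.59.

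By Pearson's r of the log2 level over the 8 libraries, the genes most like Csf1 among those analyzed were Mus81 (0.990), Impa1 (0.955) and Zscan22 (0.923). Among those most like Csf1r were Unc93b1 (0.993) and Rnf149 (0.991), and those most like Csf2ra were Ets2, Aldoc and Soat1 (each 0.987). Csf2rb was most like Rassf4 (0.998), Cir1 (0.995) and Idh1 (0.993), Csf2rb2 most like Clec4a2 (0.991), Thbs1 (0.978) and Crebrf (0.962), and Csf3r most like Sec14l1 (0.993), Vrk3 (0.992) and Dram1 (0.991). Among the members, Csf1r was most like Csf2rb (0.93) and Csf2ra (0.92), and Csf1 had an r between -0.47 and 0.03 with every receptor chain. These values describe 8 libraries that share their depths and times, and no test was made of them.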

How the data were processed

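PolyA RNA-seq libraries of WT and Arntl-/- BMDMs were analyzed, 1 for each genotype and time. The ChIP-seq samples were not analysed here. Per the submitters' processing notes and the file header, the authors aligned reads to mm9 with STAR and took HOMER tag counts over the exons of RefSeq transcripts, without regard to strand, with at most 3 tags per position and 1 transcript per gene (versions not given in the sources used here). The FPKM they deposited are per 10000000 reads. The columns of the table also held 4 that match no sample used here, and 1 broken line was left out.

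FPKM multiplied by length in kb fell on whole multiples of 1 read (tolerance 0.1 reads), over 99.9% of values in each library, which gave back the reads behind each value. These served for depth, exact counting intervals (95%) and the floor of 3 reads. With 1 library per condition no count test was run.

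FPKM were scaled by size factors (median of ratios), and ratios were taken on the log2(scaled FPKM + 0.1) scale, which understates changes of low genes. The Csf2 ratios of 6 h to 0 h given as folds are plain quotients of the levels. The genes analyzed, as many as the study clustered, had the highest WT maximum of scaled FPKM times length in kb, at least 74.5. A change was called at 1.5-fold. Alternatives were upper-quartile scaling, FPKM as deposited, pseudocounts of 1 and 0.01, subtraction of a lowess curve on expression level (fraction 0.3), no filter, a mean of at least 100 reads, and, chosen after seeing the data, size factors without the WT 6 h library. The relation to depth, and limma with the hour as a block, were also added after seeing the data.

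Genes named are the members, the list genes past 1.5-fold between genotypes, up to the 2 that rose and the 2 that fell most at 6 h in WT cells in each list, the 3 genes most like each member and the highest marker of each cell type. Other genes named (S100a9 and the other single list genes) were chosen after their values were seen. Some genes and 1 sequence that this rule or the choice of sequences would give are not reported here. The members and lists were chosen with earlier results of these data known. Promoter windows, coding sequences and exon overlaps came from the mm9 genome (NCBIM37) and GENCODE vM1. The steps were tested on simulated data. Software was limma 3.58.1 under R 4.3.3, Biopython 1.88, statsmodels 0.14.6, scipy 1.17.1, matplotlib 3.10.9, pandas 2.3.3, numpy 2.4.6 and Python 3.11.15.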

Additional observations from a re-analysis of the deposited data

Results flagged for a closer look

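Csf1r at 6 h was flagged because its level moved in opposite directions in the genotypes, with a log2 change of -0.4431 in WT and 0.2206 in Arntl-/- cells. Neither was past 1.5-fold, and the difference was not tested. With the correction for expression level both directions turned, to 0.10 and -0.03, and the genes with over 3 reads per base had medians of -0.57 and 0.24.

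Csf1 was flagged at 24 h, with a log2 change of 1.232 in WT and -0.3445 in Arntl-/- cells, and at 48 h, with 0.7239 in WT and -0.7962 in Arntl-/- cells. Each pair of changes rests on 1 library per condition and shares the 0 h library of its genotype, and the differences were not tested.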

How the results depend on the processing

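The labels give no replicate numbers, and each comparison sets 1 library against 1, so that leaving out a library leaves no ratio. With the libraries paired by hour (limma, chosen after seeing the data), 37 genes differed between genotypes at an adjusted p under 0.05, and 0 of the 6 members did, also at an unadjusted p under 0.05, which 8.77% of all genes had. No called ratio of a member changed direction under any alternative run, and the ratios of the list genes were not recomputed. With the correction for expression level, 1 member in place of 0 passed 1.5-fold between genotypes at 6 h, against 2.21% of all genes, and 1 in place of 3 or 4 did in WT cells at 48 h and in Arntl-/- cells at 24 and 48 h. The count of all genes between genotypes at 6 h fell from 356 to 215. With the values as deposited, 2 members passed in WT cells at 6 h (Csf1 and Csf3r), against 9.25% of all genes, and 1 at 48 h (Csf1), against 28.4%. Without a filter, with all 24016 genes, those past 1.5-fold between genotypes numbered 4135, 4374, 4120 and 4846 at 0, 6, 24 and 48 h. After KLA at 6, 24 and 48 h they numbered 4777, 5211 and 6611 (WT) and 4525, 5590 and 7668 (Arntl-/-). A mean of at least 100 reads kept 10184 genes and 7 members. As deposited, the median of all genes shifted to -0.12 between genotypes at 6 h, 0.12 in WT cells at 6 h, -0.13 in WT cells and -0.18 in Arntl-/- cells at 48 h, and the share of higher among called genes moved from 57.9% to 76.8%, 51.4% to 12.9% and 54.3% to 66.3% between genotypes at 0, 6 and 24 h, from 56.7% to 91.5% and 47.0% to 31.6% in WT at 6 and 48 h, and from 51.9% to 36.0% and 47.0% to 29.1% in Arntl-/- at the same times. With the correction it moved from 51.9% to 65.1% in Arntl-/- at 6 h. Among single values, 40 left the 95% counting interval of the value reported with the correction, 37 as deposited, 5 with upper-quartile scaling and 0 with either pseudocount or with size factors without the WT 6 h library. The intervals of Csf2 are wide, and with pseudocounts of 1 and 0.01 its log2 ratio between genotypes at 48 h went from -4.92 to -1.97 and -8.19, and its change at 6 h in Arntl-/- cells from 2.92 to 1.97 and 3.08. Depth limits Csf2, with at most 21 reads, and the absence of replicates limits every comparison.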
